A study of Mus musculus with 10 samples.

Results

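The 10 genes described here encode proteins that hold epithelial cells together. They are the classical cadherins Cdh1, Cdh2 and Cdh3, the adhesion molecule Epcam, the claudins Cldn3, Cldn4, Cldn6 and Cldn7, and the desmosomal plaque proteins Dsp and Jup. They were picked by name, and each is represented by its RefSeq transcript with the highest mean level over the 10 libraries, out of 24520 genes in the deposited table. All 10 were found in the table and all 10 passed the filter on low values, under which 11956 genes were tested. RNA was sequenced from mouse V6.5 embryonic stem cells (ESCs), grown on irradiated embryonic fibroblast feeders with leukemia inhibitory factor, and from cells that the labels call NPCs. The latter were made from the same line through embryoid bodies of 4 days and then a monolayer in ITSF medium, received siRNA on day 5 and were harvested on day 8. ESCs received an siRNA against luciferase as the control or an siRNA against Cbx3, and NPCs received the control siRNA, Cbx3 siRNA or Med26 siRNA. Each of the 5 groups has 2 libraries, labelled as biological replicates. No group is free of transfection, and with n = 2 per group every p-value measures only the spread between these samples.

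Epithelial cells are joined side by side by 3 kinds of junction. Adherens junctions are built from cadherins, which bind each other between cells and hold catenins inside the cell. Tight junctions are built from claudins, which seal the space between cells and set which ions pass. Desmosomes tie the membrane to the keratin filaments through plaque proteins such as desmoplakin (Dsp) and plakoglobin (Jup). Mouse ESCs and the epiblast are epithelial in this sense and carry E-cadherin (Cdh1). When the embryo forms the neural plate, cells commonly exchange Cdh1 for N-cadherin (Cdh2), the cadherin of neural epithelium, and lose Epcam. Cbx3 encodes HP1 gamma, a chromatin protein, Med26 encodes a subunit of Mediator, and the title of the series concerns the keeping of lineage specificity by Cbx3 during neural differentiation.

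Promoter windows were looked up because several of these genes lie next to each other and some moved together. In the RefSeq table of GRCm38.p6, Cldn3 and Cldn4 are neighbouring genes on chromosome 5, Cdh1 and Cdh3 are neighbouring genes on chromosome 8, and Cldn6 lies beside Cldn9 on chromosome 17. Windows were found for 7 of the 10 genes, with 8 windows in all since Cldn7 has 2 start sites. The 250 bases upstream of the RefSeq start site are shown for the neighbours Cldn4 and Cldn3, which responded differently to Med26 siRNA, for Dsp, which rose with both siRNAs, and for Epcam, which passed the test with neither. Each is read 5′ to 3′ on the strand of its gene. Capitals mark matches on either strand to CAGGTG, the E-box letters bound by the Snail and Zeb repressors, or to GGGCGG, the GC box. The coordinates are chr5:134946935-134947184 (minus strand) for Cldn4, chr5:134985964-134986213 (plus strand) for Cldn3, chr13:38151044-38151293 (plus strand) for Dsp and chr17:87635729-87635978 (plus strand) for Epcam.
Cldn4: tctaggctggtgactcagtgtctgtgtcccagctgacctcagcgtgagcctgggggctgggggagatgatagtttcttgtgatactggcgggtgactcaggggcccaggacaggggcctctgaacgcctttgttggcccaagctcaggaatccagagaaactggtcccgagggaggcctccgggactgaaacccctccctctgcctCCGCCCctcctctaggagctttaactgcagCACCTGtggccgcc
Cldn3: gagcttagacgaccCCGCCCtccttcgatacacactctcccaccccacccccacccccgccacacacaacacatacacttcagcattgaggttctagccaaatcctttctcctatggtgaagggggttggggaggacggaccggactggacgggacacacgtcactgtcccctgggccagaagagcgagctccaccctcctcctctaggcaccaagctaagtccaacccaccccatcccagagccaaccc
Dsp: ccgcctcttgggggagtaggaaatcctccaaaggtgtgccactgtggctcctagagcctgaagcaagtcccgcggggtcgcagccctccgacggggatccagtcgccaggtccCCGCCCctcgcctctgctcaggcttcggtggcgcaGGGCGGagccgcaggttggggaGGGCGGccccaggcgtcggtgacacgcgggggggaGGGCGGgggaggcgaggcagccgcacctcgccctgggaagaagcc
Epcam: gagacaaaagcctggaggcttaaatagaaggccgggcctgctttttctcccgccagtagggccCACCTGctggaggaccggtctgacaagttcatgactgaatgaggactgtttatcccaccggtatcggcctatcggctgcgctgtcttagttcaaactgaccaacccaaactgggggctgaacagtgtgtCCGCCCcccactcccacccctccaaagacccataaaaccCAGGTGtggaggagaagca
The CAGGTG letters, found in 17.2% of the 32851 promoter windows of the same length, occurred once upstream of Cldn4, with its first base at -14 from the start site, and at -187 and -19 for Epcam. Among the windows not shown they occurred at -93 for Cldn6 and at -97 and -57 in 1 of the 2 windows of Cldn7. In all, 4 of the 8 windows held them, and those of Cldn3, Dsp and Jup and the other window of Cldn7 did not. The GC box letters, found in 32.7% of all windows, occurred at 4 places upstream of Dsp at 2 places each upstream of Jup and Cldn6, and at 1 place each upstream of Cldn4, Cldn3 and Epcam and in 1 window of Cldn7. No match of one motif overlapped a match of another. Neither TATAAA (12.4% of all windows) nor the Grainyhead letters AACCGGTT (0.1% of all windows) occurred in any of the 8 windows. The window of Dsp was the richest in G and C of the 4 shown, at 72.4% against a median of 52.4% over all windows. These matches describe letters in a window and say nothing on their own about binding.

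Before the comparisons, the libraries themselves were compared. Levels are RPKM, which divide the reads of a transcript by its length in kilobases and by the mapped reads in M (mega), so levels of different genes can be compared per length. The depth, read from the steps of the low values, corresponded to 23.3 M to 63.8 M reads per library, and the least covered value of the set, Cdh2 in ESCs after Cbx3 siRNA, rests on an estimated 73.0 reads. Cbx3 was at 0.248 to 0.425 RPKM in NPCs after Cbx3 siRNA against 9.37 to 9.65 RPKM in NPC control, and at 1.01 to 1.96 RPKM against 14.0 to 56.4 RPKM in ESCs. Med26 was at 3.04 to 3.07 RPKM after Med26 siRNA against 6.78 to 7.56 RPKM in NPC control. Of the neural progenitor markers, Sox1 was at 8.29 to 9.22 RPKM and Nes at 33.4 to 34.9 RPKM in NPC control, Pax6 was at 3.39 to 3.42 RPKM, and Hes5, Fabp7 and Zbtb16 were at 0.342 RPKM or less. The pluripotency factor Pou5f1 was still at 484 to 497 RPKM there, against 308 to 536 RPKM in ESC control. Of 11 pluripotent markers, 5 were called lower in NPC control than in ESC control, namely Esrrb, Nr0b1, Klf4, Zfp42 and Dppa5a. Fgf5 was called higher. Of 7 tested neural markers, 3 were called higher, Nes, Sox3 and Sox1, and Sox2 was called lower. Of all tested genes 10.1% were called higher and 5.94% lower. NPC is used below as the label and not as a checked identity.

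The ESC replicates stood apart from each other, which bears on all comparisons that use them. Over the tested genes the standard deviation of the log2 difference between replicates was 0.573 in ESC control and 0.576 in ESC Cbx3 siRNA, against 0.162 to 0.177 in the NPC groups. Cldn6, Cldn7 and Dsp were all higher in replicate 2 than in replicate 1 in both ESC groups. Cldn6 was at 22.1 and 55.2 RPKM in the ESC control replicates and at 21.3 and 56.1 RPKM in the ESC Cbx3 siRNA replicates. Dsp was at 1.03 and 3.26 RPKM in the first group and at 0.937 and 3.77 RPKM in the second. Epcam and Jup, by contrast, had replicate gaps of 0.25 or less on the log2 scale in both ESC groups. The ESC libraries of replicate 2 were also the shallower in each group, at 24.0 M and 23.3 M reads against 51.3 M and 33.6 M. Some pluripotent markers differed between the replicates as well. Esrrb was at 53.4 and 13.7 RPKM in ESC control replicates 1 and 2, and at 57.96 and 16.2 RPKM in ESC Cbx3 siRNA. Otx2 was at 5.02 and 9.47 RPKM, then 4.09 and 7.73 RPKM, in the same order. For both, replicate 2 was nearer to NPC control (Esrrb 0.913 to 1.18 RPKM, Otx2 12.8 to 15.1 RPKM). The same held in both ESC groups for Nanog, Klf4, Zfp42, Nr0b1, Dppa5a, Fgf5 and Dnmt3b. Of the listed pluripotent markers only Pou5f1 and Tdgf1 were nearer to NPC control in replicate 1. The part of depth or of cell state in these gaps was not tested.

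**Figure D1:**
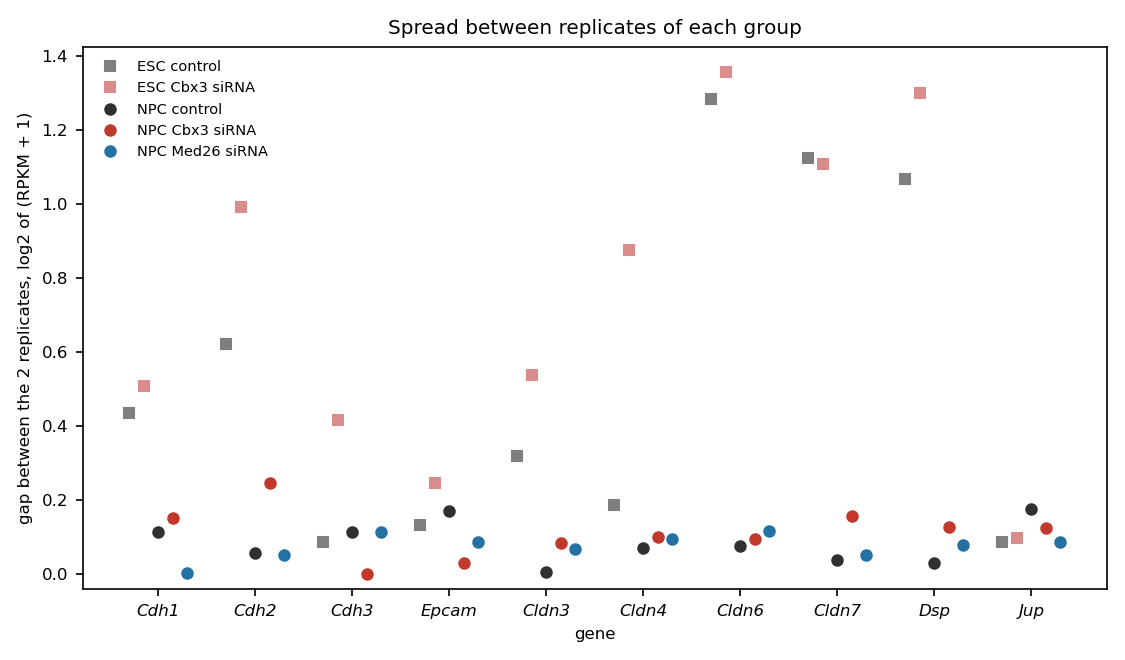
The gap between the replicates of each group on the log2(RPKM + 1) scale is plotted for each gene, with squares for ESC groups and circles for NPC groups. The NPC gaps all lie at 0.25 or below, whereas the ESC gaps of Cldn6, Cldn7 and Dsp lie between 1.07 and 1.36.

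The order of the levels was much the same in all groups, with Cdh1 and Epcam at the top and Cdh2 at the bottom. In NPC control the mean was 174 ± 9.8 RPKM (SD, n = 2) for Cdh1, the core cadherin of epithelial adherens junctions. Epcam, a surface glycoprotein that modulates cadherin adhesion, followed at 130.0 ± 10.9 RPKM (SD, n = 2). Then came Cldn6 at 94.2 ± 3.6 RPKM, Cldn4 at 65.9 ± 2.3 RPKM and Cldn7 at 43.1 ± 0.85 RPKM (SD, n = 2 each). Jup, Cldn3, Cdh3, Dsp and Cdh2 made up the lower end, with Cdh2 at 2.51 ± 0.099 RPKM (SD, n = 2). In NPC control no neighbours in this order overlapped. In ESC control, Epcam overlapped Cdh1 and the upper Cldn6 library lay above both Cldn4 libraries, while Jup lay within the range of Cldn7. After Cbx3 siRNA in NPCs, Cldn4 moved above Epcam in mean level with overlapping libraries, and Cldn3 and Jup overlapped.

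Cdh1 thus far exceeded Cdh2 in the cells labelled NPCs. The Cdh1 level was 74.4 and 64.9 times the Cdh2 level in the NPC control libraries, 90.2 and 62.9 times after Cbx3 siRNA and 72.5 and 76.4 times after Med26 siRNA. In the ESC libraries the ratio was 103 and 66.7 in the control and 171 and 58.3 after Cbx3 siRNA. The NPC ratios lay inside the ESC range in every library. That range is wide, and its upper end rests on the Cdh2 value of an estimated 73.0 reads. No turn toward Cdh2 beyond this range was seen, and a shift within it could not be told. The part of feeder cells in the ESC ratios was not tested. Among the transition factors that can repress Cdh1, Snai1, Snai2 and Zeb2 were low, with Snai1 at 0.568 RPKM or less, Snai2 at 0.171 RPKM or less and Zeb2 at 0.833 RPKM or less in every library. Zeb1 was at 1.36 to 2.33 RPKM in the ESC libraries and at 0.256 to 0.389 RPKM in the NPC libraries. Twist1 was at 2.01 to 4.04 RPKM over all 10 libraries. Snai3 was at 3.93 to 6.60 RPKM in the ESC libraries and at 7.79 to 10.8 RPKM in the NPC libraries, and it was higher in NPC control than in ESC control (log2 change 0.82, limma adjusted p = 0.0292).

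**Figure D2:**
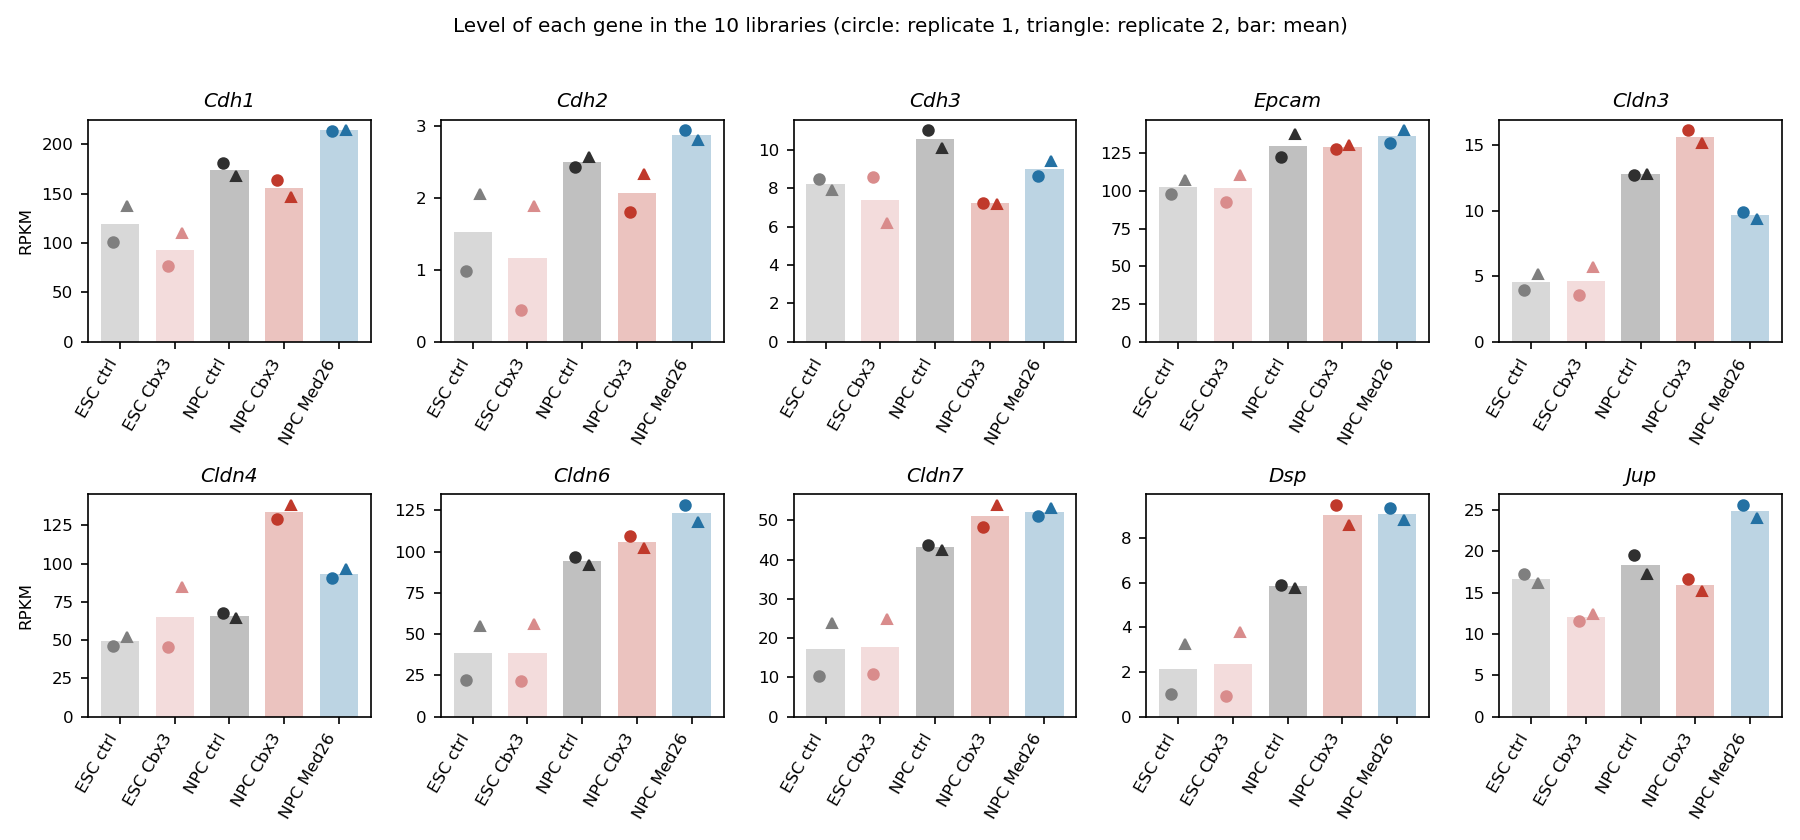
RPKM of each gene is plotted in the 10 libraries by group, with a circle for replicate 1, a triangle for replicate 2 and a bar for the group mean, each panel with its own axis from 0. Cldn4 is highest in NPCs after Cbx3 siRNA (129 and 138 RPKM), while Cdh1 and Jup are highest after Med26 siRNA.

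NPC control and ESC control were compared to see how these genes stood in both cell types, which also differ in medium and feeders. The level of Cldn3, a sealing claudin, was higher in NPC control than in ESC control, and it was the 1 gene of the 10 that passed the test. Its level was 3.97 and 5.20 RPKM in ESC control and 12.7 and 12.8 RPKM in NPC control. The log2 change of (RPKM + 1) was 1.31 (SE 0.18, limma adjusted p = 0.00579). Over all tested genes 10.1% were called higher and 5.94% lower, so 1 higher and 0 lower of 10 is about the background. For 9 of the 10 genes both NPC libraries lay above both ESC libraries, which held for 34.5% of all tested genes. Jup was the exception, at 17.2 and 16.2 RPKM in ESC control and 19.6 and 17.2 RPKM in NPC control, where the groups met.

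Cldn6 and Cldn7 had larger log2 changes than Cldn3, Dsp had a slightly smaller one, and none of these 3 passed. Cldn6, a claudin of early embryonic epithelia, was at 22.1 and 55.2 RPKM in ESC control and 96.8 and 91.7 RPKM in NPC control (log2 change 1.40, SE 0.49, limma adjusted p = 0.0901). Cldn7, which is found along the lateral membrane and binds Epcam, was at 10.4 and 24.0 RPKM against 43.7 and 42.5 RPKM (1.38, SE 0.42, limma adjusted p = 0.0600). Dsp was at 1.03 and 3.26 RPKM against 5.92 and 5.78 RPKM (1.22, SE 0.44, limma adjusted p = 0.100). In all 3 the gap between ESC replicates was wide, and ESC replicate 2 was the library nearer to the NPC level. Without ESC control replicate 2, these 3 genes and Cdh1 passed as well, 5 in all, with limma adjusted p between 0.0176 and 0.0407 for these 4, in a fit that called 11.1% of all tested genes higher. Cldn3 passed without either ESC control library, with a log2 change of 1.15 (limma adjusted p = 0.0244) or 1.47 (0.00712), and missed the threshold without NPC control replicate 1 (0.0590) or 2 (0.0546). Without ESC Cbx3 siRNA replicate 1 or 2, which enter this comparison only through the shared error, 7 genes passed, in fits that called 14.1% and 14.3% of all tested genes higher.

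The remaining genes differed less between the cell types. Cdh1 was at 101 and 137 RPKM in ESC control and 181 and 167 RPKM in NPC control (log2 change 0.56, 95% interval 0.09 to 1.02). Cdh2 was at 0.987 and 2.06 RPKM and then 2.44 and 2.58 RPKM (log2 change 0.51, interval -0.24 to 1.26). For Cdh3, Epcam, Cldn4 and Jup the log2 changes were 0.33, 0.34, 0.42 and 0.13, with limma adjusted p from 0.0979 to 0.406. Feeder fibroblast markers moved with this comparison, and their part in it was not tested. Their summed level over 10 genes was 50.3 to 75.9 RPKM in ESC control and 6.13 to 7.90 RPKM in NPC control, led by S100a4 in the ESC libraries, with Lum and Fap under 0.1 RPKM in both groups. In bulk RNA, fewer cells of a type and less RNA per cell cannot be told apart, here and in each comparison that follows.

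Cbx3 siRNA and control siRNA were compared in NPCs to see what loss of Cbx3 RNA changed during neural differentiation. Cldn4 RNA rose 2.03-fold, Dsp and Cldn3 rose by less, and Cdh3 fell. The other 6 genes did not pass the test, among them Cdh1 and Epcam, the most abundant of the set. Thus 3 of 10 genes were called higher and 1 lower, against 7.80% higher and 5.33% lower of all tested genes. The median log2 change of the 10 genes was 0.08, and that of all tested genes was 0.01.

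Of the claudins, Cldn4 moved most. Cldn4 limits the passage of sodium through tight junctions, and it stood at 67.5 and 64.2 RPKM in the control libraries of NPCs. After Cbx3 siRNA it stood at 129 and 138 RPKM. Both treated libraries lay above every other library of the study. The log2 change was 1.01 (SE 0.06, limma adjusted p = 0.000864), and it passed when any 1 of the 6 NPC libraries was left out. Its neighbour Cldn3 went from 12.7 and 12.8 RPKM to 16.1 and 15.2 RPKM, without overlap (log2 change 0.27, SE 0.06, limma adjusted p = 0.0410). The Cldn3 call was lost when any 1 library was left out, with limma adjusted p from 0.0720 to 0.187. The level of Cldn4 went from 5.31 and 5.03 times that of Cldn3 in control to 8.00 and 9.14 times after Cbx3 siRNA.

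Cldn6 and Cldn7 were higher in both treated libraries without passing. Cldn6 had 96.8 and 91.7 RPKM with control siRNA and 109 and 102 RPKM with Cbx3 siRNA (log2 change 0.16, limma adjusted p = 0.154). Cldn7 was at 43.7 and 42.5 RPKM and then 48.2 and 53.9 RPKM (log2 change 0.24, limma adjusted p = 0.0665). The 4 claudins together summed to 221 and 211 RPKM with control siRNA and 303 and 310 RPKM with Cbx3 siRNA, and most of that difference was Cldn4.

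Of the desmosomal genes Dsp and Jup, Dsp alone passed. Dsp, whose protein anchors keratin filaments to the plaque, had 5.92 and 5.78 RPKM with control siRNA and 9.49 and 8.60 RPKM with Cbx3 siRNA. It rose 1.55-fold without overlap (log2 change 0.55, SE 0.08, limma adjusted p = 0.00901). Jup, which serves in both desmosomes and adherens junctions, had 19.6 and 17.2 RPKM with control siRNA and 16.6 and 15.2 RPKM with Cbx3 siRNA (log2 change -0.20, limma adjusted p = 0.175). The treated Jup libraries lay just below the control libraries. The Dsp call missed the threshold without NPC control replicate 1 (0.0547) or 2 (0.0548) or Cbx3 siRNA replicate 1 (0.0558).

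Among the cadherins only Cdh3 passed. Cdh3 encodes P-cadherin, which is common in placenta and in the basal layer of epithelia. It fell by 0.49 on the log2 scale (SE 0.08, limma adjusted p = 0.0121), from 11.01 and 10.1 RPKM with control siRNA to 7.20 and 7.20 RPKM with Cbx3 siRNA, 0.682 times the control mean. Its neighbour Cdh1 had 181 and 167 RPKM with control siRNA and 163 and 147 RPKM with Cbx3 siRNA (log2 change -0.17, 95% interval -0.34 to 0.00, limma adjusted p = 0.173). Cdh2 was at 2.44 and 2.58 RPKM and then 1.81 and 2.34 RPKM (log2 change -0.19, limma adjusted p = 0.257). Cdh1 and Cdh2 were thus lower in mean level after Cbx3 siRNA without passing. Epcam had 122 and 138 RPKM with control siRNA and 128 and 130.5 RPKM with Cbx3 siRNA, with overlapping groups and a 95% interval of -0.18 to 0.16 around a log2 change of -0.01. The Cdh3 call missed the threshold without NPC control replicate 1 (0.0719) or Cbx3 siRNA replicate 1 (0.0632) or 2 (0.0632). When all 10 libraries entered the fit, with the wider ESC spread in the error, none of these calls passed (limma adjusted p = 0.189 for Cldn4, 0.761 for Dsp, 0.676 for Cldn3 and 0.243 for Cdh3).

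**Figure D3:**
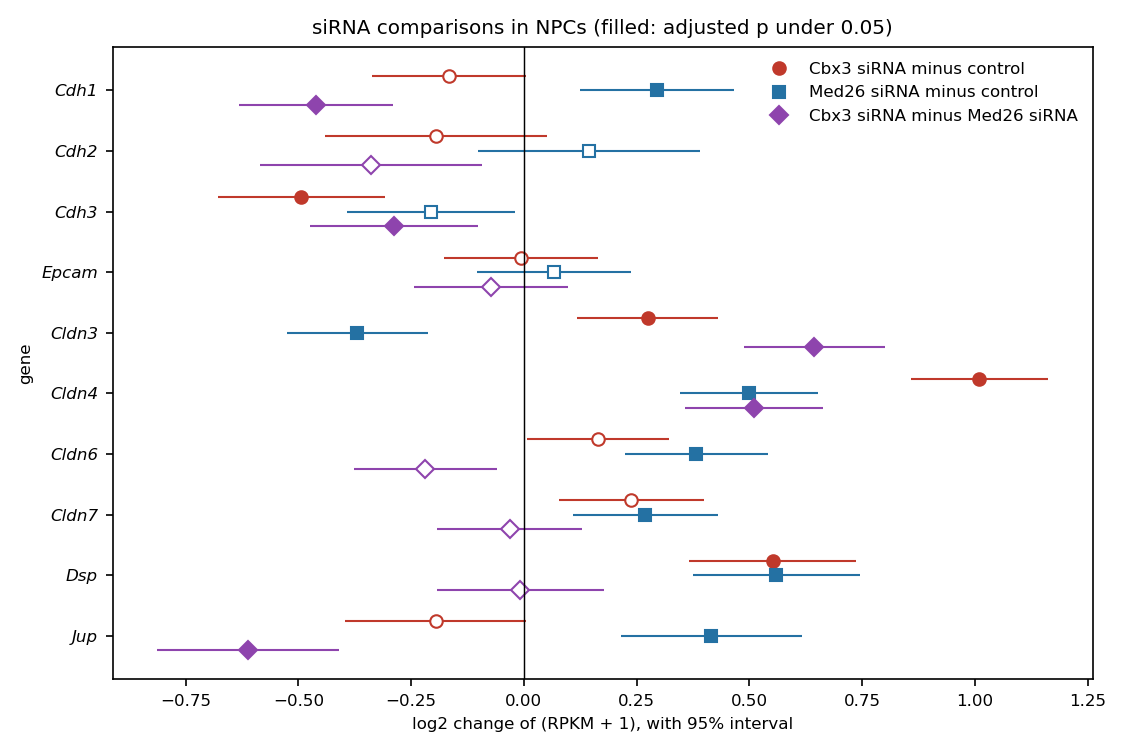
For each gene the log2 change of (RPKM + 1) is plotted for the 3 comparisons among NPC groups, with bars for the 95% interval and filled symbols where the limma adjusted p is under 0.05. Cldn4 lies at 1.01 after Cbx3 siRNA, Cldn3 lies at 0.27 after Cbx3 siRNA and at -0.37 after Med26 siRNA, and Epcam lies near 0 in all 3 comparisons.

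Med26 siRNA and control siRNA were compared in NPCs with the same control libraries, so the results for both siRNAs are not independent. Here 6 genes were called higher, namely Dsp, Cldn4, Jup, Cldn6, Cdh1 and Cldn7, and Cldn3 was called lower. Of all tested genes 6.90% were called higher and 6.46% lower. The median log2 change was 0.28 for the 10 genes and -0.00 for all tested genes. Cdh2, Cdh3 and Epcam did not pass.

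Cdh1 had 181 and 167 RPKM with control siRNA and 214 and 214 RPKM with Med26 siRNA, the highest level it had in the study (log2 change 0.29, SE 0.07, limma adjusted p = 0.0438). Cdh2 was at 2.95 and 2.80 RPKM after Med26 siRNA (0.14, limma adjusted p = 0.387), and Cdh3 was at 8.62 and 9.41 RPKM (-0.21, limma adjusted p = 0.128). Cdh1 alone of the cadherins therefore passed here. Epcam was at 132 and 140.2 RPKM and overlapped its control (0.07, 95% interval -0.10 to 0.24).

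The claudins did not move as a block. Cldn4 rose to 90.4 and 96.7 RPKM, 1.42 times the control mean (log2 change 0.50, SE 0.06, limma adjusted p = 0.00806). Cldn6 rose to 128 and 118 RPKM (0.38, limma adjusted p = 0.0182), and Cldn7 rose to 51.2 and 53.1 RPKM (0.27, limma adjusted p = 0.0474). Cldn3 instead fell to 9.90 and 9.39 RPKM, below both control libraries, with a log2 change of -0.37 (SE 0.06, limma adjusted p = 0.0189). Cldn4 was then at 9.14 and 10.3 times the level of Cldn3, against 5.31 and 5.03 times in control. Cldn3 overlaps the end of the long noncoding RNA Wbscr25 in the annotation, but Wbscr25 was at 0.082 RPKM or less in every library.

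Both plaque genes rose after Med26 siRNA. Dsp was at 9.37 and 8.82 RPKM, 1.56 times the control mean (log2 change 0.56, SE 0.08, limma adjusted p = 0.00998). Jup was at 25.6 and 24.0 RPKM, 1.35 times the control mean (0.42, SE 0.08, limma adjusted p = 0.0268), and no other group reached that level. Cdh1, Cldn3, Cldn6, Cldn7, Dsp and Jup each missed the threshold when NPC control replicate 1 or 2 or Med26 siRNA replicate 1 or 2 was left out, with limma adjusted p from 0.0510 for Dsp to 0.179 for Cdh1 over these fits. Cldn4 missed it without NPC control replicate 2 (0.0567) or Med26 siRNA replicate 2 (0.0519). With all 10 libraries in the fit none of the 7 passed (limma adjusted p from 0.211 to 0.927), and without the filter on low values Cdh1 (0.0862), Cldn7 (0.0811) and Jup (0.0558) did not pass.

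The siRNAs were then compared directly with each other, without the control libraries. Cldn3 and Cldn4 were higher after Cbx3 siRNA than after Med26 siRNA, and Jup, Cdh1 and Cdh3 were lower. These 2 higher and 3 lower calls stand beside 10.4% higher and 7.87% lower of all tested genes. Cldn3 differed most, at 16.1 and 15.2 RPKM after Cbx3 siRNA and 9.90 and 9.39 RPKM after Med26 siRNA (log2 difference 0.64, SE 0.06, limma adjusted p = 0.0031). Cldn4 followed with 0.51 (SE 0.06, limma adjusted p = 0.00532), and both passed whichever library was left out.

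Jup was at 16.6 and 15.2 RPKM after Cbx3 siRNA and at 25.6 and 24.0 RPKM after Med26 siRNA, a log2 difference of -0.61 (SE 0.08, limma adjusted p = 0.00694). Cdh1 differed by -0.46 (limma adjusted p = 0.00955) and Cdh3 by -0.29 (limma adjusted p = 0.0481). Both siRNAs thus left Cdh3 below its control mean and Cdh1 on opposite sides of its control mean. Dsp did not pass, with a log2 difference of -0.01 and a 95% interval of -0.19 to 0.18, nor did Cldn7 (-0.03, interval -0.19 to 0.13) or Epcam (-0.07, interval -0.24 to 0.10). Jup missed the threshold without Med26 siRNA replicate 1 (0.0515). Cdh1 missed it without Cbx3 siRNA replicate 2 (0.0503) or Med26 siRNA replicate 1 (0.0622) or 2 (0.0516), and Cdh3 missed it whichever library was left out (0.0637 to 0.202). With all 10 libraries in the fit, Jup was the 1 gene that passed.

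In ESCs, Cbx3 siRNA gave no call among the 10 genes with limma, and 0% of all tested genes were called higher and 0% lower, although 645 genes had an unadjusted p under 0.05. Jup was the gene whose groups did not overlap, and 13.1% of all tested genes had both Cbx3 siRNA libraries below both control libraries. It was at 17.2 and 16.2 RPKM in ESC control and 11.5 and 12.4 RPKM after Cbx3 siRNA (log2 change -0.45, SE 0.10, limma adjusted p = 0.516). Cdh1 was at 101 and 137 RPKM and then 76.9 and 109.9 RPKM (log2 change -0.36, 95% interval -0.82 to 0.11). Cldn4 was at 45.9 and 52.4 RPKM and then 45.8 and 84.9 RPKM, with the treated libraries on both sides of the control range (log2 change 0.34, interval -0.23 to 0.92). Cdh2 and Cdh3 had log2 changes of -0.27 and -0.15. The other 5 genes had log2 changes within 0.06 of 0. The widest interval in this fit was that of Cldn6, -1.15 to 1.13, and the error in it holds the gap between replicates 1 and 2 that both ESC groups had.

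Whether the response to Cbx3 siRNA differed between NPCs and ESCs was tested as an interaction. No gene of the 10 passed with limma, and 0% of all tested genes were called higher and 0% lower (233 had an unadjusted p under 0.05). The response of Cldn4 was larger in NPCs than in ESCs by 0.67 on the log2 scale (95% interval -0.15 to 1.48), and that of Cdh3 was lower by 0.34 (difference -0.34, interval -0.81 to 0.12). The rise of Cldn4 in NPCs and the absence of a call in ESCs therefore do not show a difference between the cell types.

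Other genes of the same structures were followed as lists, with the 10 genes left out of them. After Cbx3 siRNA in NPCs the cytoskeletal and desmosomal partners rose most. All 4 tested simple keratins, the filaments that desmosomes hold, were higher, with a median log2 change of 1.30 against 0.01 for all tested genes. Krt8 went from 61.0 to 175 RPKM in group means (log2 change 1.51, SE 0.06, limma adjusted p = 0.000285), Krt18 from 136 to 314 RPKM (1.20, 0.000731) and Krt7 from 2.94 to 9.46 RPKM (1.41, 0.000808). Of 8 tested desmosome genes 5 were higher and 0 lower, and no fit without 1 NPC library called as many higher. They included the plaque protein Pkp3 (3.60 to 6.10 RPKM, log2 change 0.63, limma adjusted p = 0.00901), the desmosomal cadherin Dsg2 (8.15 to 11.3 RPKM, 0.43, 0.0187) and the membrane protein Perp (20.3 to 27.0 RPKM, 0.39, 0.00790).

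The tight junction list was mixed, with 5 of 16 tested genes higher and 2 lower after Cbx3 siRNA. Cldn9, the neighbour of Cldn6, rose from 0.771 to 1.84 RPKM (log2 change 0.68, limma adjusted p = 0.00614), and the cytoplasmic linkers Cgn (0.54, 0.0133) and Amotl1 (0.45, 0.0159) rose too. Cgnl1, a paralog of Cgn, fell from 2.49 to 1.29 RPKM (-0.60, 0.0133). The adherens junction list had 1 gene higher, Nectin4 (0.30, 0.0387), and 0 lower of 16. Nectin4 had a group mean above 1 RPKM only after Cbx3 siRNA in NPCs, at 1.21 RPKM. It therefore met the filter at least in part through the group where it was high. The polarity list had 1 higher, Pard6b (0.29, 0.0245), and 0 lower of 13. Of 22 tested epithelial surface and regulator genes 2 were higher, the transcription factor Elf3 (0.90, 0.00417) and the tetraspanin Cd9 (0.50, 0.0208), and Cd24a was lower, from 43.7 to 26.9 RPKM (-0.68, 0.00168). Of 4 gap junction genes 1 was higher and 1 lower, the latter Gja1 (-0.24, 0.0304). Of 9 tested genes of the mesenchymal transition list, the integrin Itga5 (0.76, 0.0369) and the filament gene Vim (0.29, 0.0304) were higher and 0 were lower. The adherens junction and polarity counts, 1 of 16 and 1 of 13, are near the 7.80% of all tested genes called higher. The second number in each of these brackets is the limma adjusted p.

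The lists were read in the same way after Med26 siRNA. The simple keratins were all higher, 4 of 4, with a median log2 change of 0.80. Krt19 went from 17.0 to 39.0 RPKM (log2 change 1.15, limma adjusted p = 0.00224) and Krt8 from 61.0 to 118 RPKM (0.94, 0.00180). Of the tight junction list 6 of 16 were higher and 0 lower, with Cgn at 0.66 (0.00854) and Amotl1 at 0.64 (0.00743). Of the desmosome list 2 of 8 were higher, Dsc2 (0.52, 0.0130) and Pkp2 (0.22, 0.0360), and 0 were lower.

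The other lists held few calls after Med26 siRNA, beside 6.90% higher and 6.46% lower of all tested genes. The adherens junction list had 2 higher, the catenin Ctnna1 (log2 change 0.30, limma adjusted p = 0.0322) and the nectin linker Afdn (0.25, 0.0294), and 1 lower, Lima1 (-0.36, 0.0260), of 16. The polarity list had Mpp5 higher (0.32, 0.0338) and Pard6a lower (-0.29, 0.0420) of 13. The epithelial surface list had 3 higher and 0 lower of 22, among them the serine protease Prss8, which went from 16.2 to 25.2 RPKM (0.61, 0.00746). Of the gap junction list 1 of 4 was higher and 0 lower. Of the mesenchymal transition list 1 of 9 was higher, the integrin Itgb1 (0.38, 0.0112), and 0 were lower.

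Of the list genes named after Cbx3 siRNA, Cldn9, Elf3, Cd24a, Krt7, Krt8 and Krt18 passed whichever NPC library was left out, and Nectin4, Pard6b, Itga5, Vim and Gja1 passed in none of these fits. Of those named after Med26 siRNA, Krt8 and Krt19 passed in every such fit, and Ctnna1, Afdn, Pkp2, Mpp5 and Pard6a passed in none. After Cbx3 siRNA, Pkp3, Dsg2 and Perp passed in some of these fits and not in others. None of these list genes passed when all 10 libraries entered the fit.

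**Figure D4:**
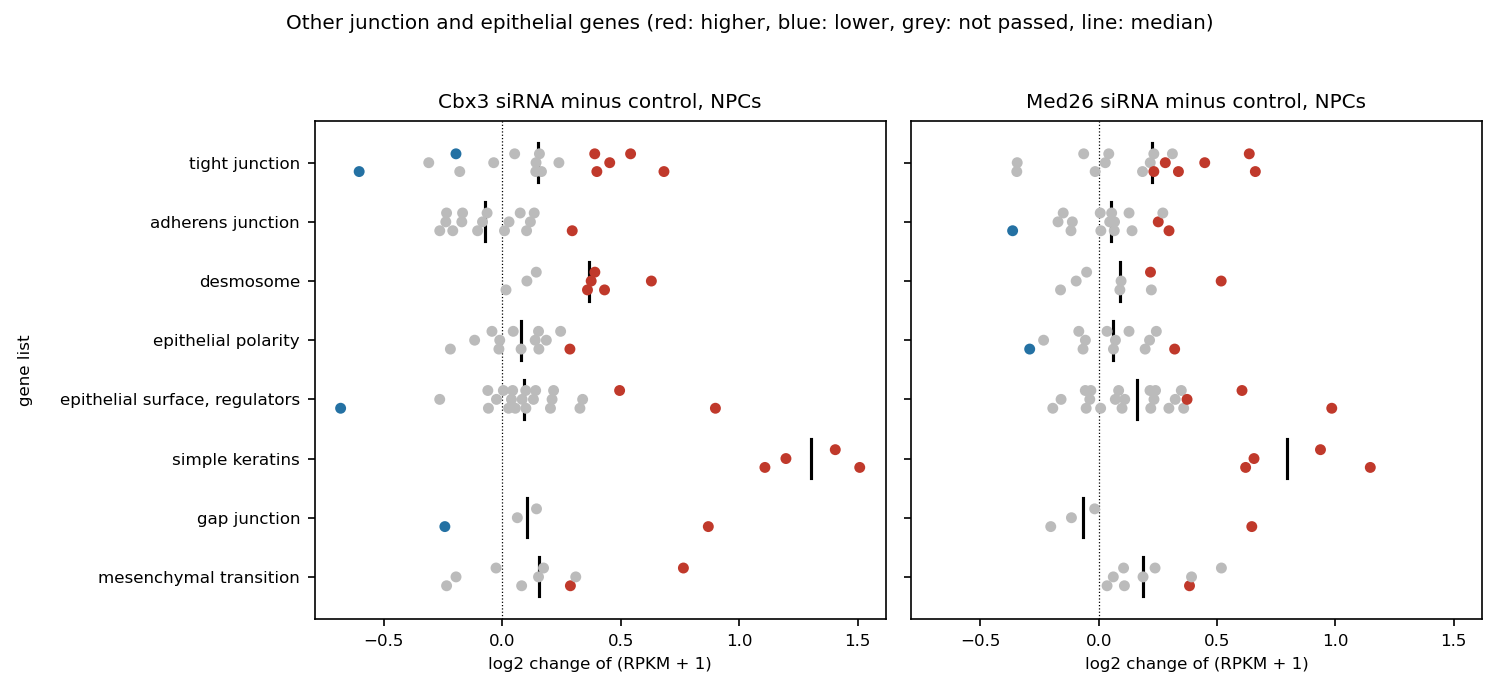
Each point is a tested gene of a list, placed by its log2 change of (RPKM + 1) after Cbx3 siRNA (left) or Med26 siRNA (right) in NPCs, with red for higher, blue for lower, grey for genes that did not pass and a black line for the list median. The 4 simple keratins lie to the right in both panels, and the adherens junction genes gather around 0.

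Markers of other cell types that NPC cultures could hold were read beside these results. The summed level of 7 surface ectoderm markers was 79.0 to 83.5 RPKM in NPC control, 145 to 148 RPKM after Cbx3 siRNA and 124 to 129 RPKM after Med26 siRNA. Nearly all of it was Sfn, at 76.8 to 81.8 RPKM in control and 140 to 143 RPKM after Cbx3 siRNA. Krt5, Krt15 and Trp63 stayed under 0.1 RPKM in all groups. Tfap2a, not tested for its low level, was at 0.0345 and 0.0562 RPKM in NPC control. It was at 0.210 and 0.033 RPKM after Cbx3 siRNA and at 0.135 and 0.097 RPKM after Med26 siRNA. Of this list 3 markers were tested. Sfn and Krt17 were called higher after both siRNAs, beside 7.80% of all tested genes after Cbx3 siRNA and 6.90% after Med26 siRNA. Krt14 was called higher after Cbx3 siRNA (log2 change 0.82, limma adjusted p = 0.00212). It was at 0.249 and 0.259 RPKM with control siRNA and at 1.23 and 1.20 RPKM with Cbx3 siRNA. Krt14 reached 1 RPKM only in these Cbx3 siRNA libraries, so it met the filter through the group where it was high. Its call therefore adds nothing to the count. Krt17 was at 1.27 and 1.78 RPKM and then 3.40 and 4.08 RPKM (0.91, limma adjusted p = 0.00930). The summed level of 9 trophoblast markers was 3.74 to 4.02 RPKM in NPC control, 4.56 to 4.69 RPKM after Cbx3 siRNA and 3.83 to 5.17 RPKM after Med26 siRNA, with Elf5, Tpbpa and Prl3d1 under 0.1 RPKM in all groups. Of this list 2 genes were tested and 0 were called after either siRNA. Cdx2, not tested for its low level, was at 0.303 and 0.449 RPKM in NPC control and at 0.776 and 0.816 RPKM after Cbx3 siRNA. Gata3 (0.405 and 0.288, then 1.08 and 0.617 RPKM) and Hand1 (0.098 and 0.038, then 0.219 and 0.292 RPKM) were not tested either. Ascl2, tested and not called, went the other way (1.65 and 1.23, then 0.855 and 0.979 RPKM). After Med26 siRNA, Cdx2 was at 0.459 and 0.483 RPKM and Gata3 at 0.999 and 0.463 RPKM. Hand1 was at 0.231 and 0.050 RPKM there and Ascl2 at 1.27 and 0.827 RPKM. Extraembryonic endoderm markers, 9 genes, summed to 1.69 to 2.57, 2.48 to 2.73 and 1.78 to 2.51 RPKM in the same order, with Afp and Ttr under 0.1 RPKM. Feeder fibroblast markers summed to 6.13 to 7.90, 8.69 to 9.82 and 6.15 to 6.52 RPKM. Of 6 tested, 2 were called higher after Cbx3 siRNA, S100a4 and Col3a1, and 1 lower, Col1a2 (all tested genes: 7.80% and 5.33%). After Med26 siRNA 0 were called.

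The pluripotent and neural progenitor markers moved as well. The 11 pluripotent markers summed to 1226 to 1240 RPKM in NPC control, 988 to 1018 RPKM after Cbx3 siRNA and 1162 to 1215 RPKM after Med26 siRNA. The calls did not follow these sums in each case. Of the 11, 0 were higher and 3 lower after Cbx3 siRNA (all tested genes: 7.80% and 5.33%). After Med26 siRNA 4 were higher, Nr0b1, Esrrb, Fgf5 and Klf4, and 1 was lower, Nanog (all tested genes: 6.90% and 6.46%). The 10 neural progenitor markers summed to 101 to 106, 83.3 to 83.6 and 119 to 121 RPKM. Of the 7 tested neural markers 5 were lower and 0 higher after Cbx3 siRNA, and 1 was higher and 1 lower after Med26 siRNA. The part of these shifts in the changes of Cldn4, Dsp, Cldn3 and Cdh3 was not tested.

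The patterns over the 10 libraries were compared by the Pearson correlation of log2(RPKM + 1), given as a description, since the points are pairs of replicates in 5 groups and ESC and NPC libraries differ in level. Cldn6, Cldn7 and Dsp ran most closely together, with r of 0.993 for Cldn6 and Cldn7 and 0.988 for each with Dsp. The neighbours Cldn3 and Cldn4 had r of 0.783, and the neighbours Cdh1 and Cdh3 had r of 0.376. Cdh3 and Cldn4 were the pair with opposite patterns, with r of -0.373. Outside the set, the genes most like Cdh1 were Ddr1 (0.988), Slc46a3 (0.985), Lratd1 (0.985), Otx2 (0.984) and Rab11fip1 (0.984). The genes most like Cdh2 were Fam32a (0.975), Rnft1 (0.972), Dstn (0.971), Gja1 (0.970) and Rbm34 (0.964).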

How the data were processed

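The labels' protocols describe Trizol extraction and TruSeq RNA libraries, of which 10 were sequenced. The submitters' processing notes name TopHat2 2.08 and mm9, a mouse genome build. The deposited values are RPKM per RefSeq accession, computed by the authors. The counting tool, its annotation, its use of strand and its rule for multiple matches are details not given in the sources used here. Overlapping genes and near-identical copies can therefore share reads, as for Krt8, which has a named pseudogene. None of the 10 genes has a named pseudogene in the RefSeq table of GRCm38.p6, which was used for names, neighbours and promoter sequences. It named 99.07% of 35860 rows, and 334 unmatched rows stood for themselves. The estimated depth was 23.3 M to 63.8 M reads per library, with 64.2% to 69.9% of low values within 0.1 reads of a whole number, too few to recover reads.

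The 11956 genes that reached 1 RPKM in 2 or more libraries were fitted on the log2(RPKM + 1) scale. limma 3.58.1 (R 4.3.3) was used with its trend option, two-sided tests and Benjamini-Hochberg adjustment over all tested genes at 0.05. This scale understates changes of low genes. Comparisons among NPC groups used the 6 NPC libraries (3 residual degrees of freedom), and the others used all 10 (5 residual degrees of freedom). "Rose", "fell" and "called" mean an adjusted p under 0.05. The script was tested on simulated data. The genes, lists, markers and the choice of the 6-library fit were made with earlier results of these data known. Named list genes are up to 3 called genes per direction and list after Cbx3 siRNA and up to 2 after Med26 siRNA, by size of change, plus the 5 genes most correlated with Cdh1 and with Cdh2. A few list genes that this rule would name are not reported here. Genes cited as background repressors or cell type markers, and the siRNA targets, are named outside this rule. Alternatives were pseudocounts of 0.1 and 0.5, no filter, median centring, summed transcripts, no trend, a replicate block, other sets of libraries and leaving out each library.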

Additional observations from a re-analysis of the deposited data

How the results depend on the processing

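Over all comparisons and alternatives, 838 values of the 10 genes kept their direction and side of the threshold, 78 lost a call, 35 gained one and 39 changed sign. The replicate numbers are only 2 per group and are not taken to pair the samples. Same-numbered samples deviated together within ESCs (r = 0.89) and within NPCs (r from 0.42 to 0.46), and not between cell types (r from -0.07 to -0.04). With a block for the replicate numbers of each cell type, 5 genes were higher and 3 lower after Cbx3 siRNA in NPCs (all tested genes: 16.0% and 13.3%), 5 were lower after Cbx3 siRNA than after Med26 siRNA (15.7%), 2 were lower after Cbx3 siRNA in ESCs (4.52%), Cdh1 (limma adjusted p = 0.0123) and Jup (0.0111), and 9 were higher in NPC control than in ESC control (32.0%). With the block and the 4 ESC libraries alone, a fit added after the data were seen, 0 were called in ESCs. With the block and all 10 libraries, also added then, 5 were higher after Cbx3 siRNA in NPCs (10.4%).

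With all 10 libraries and no block, 0 genes were higher and 0 lower after Cbx3 siRNA in NPCs, 0 and 0 after Med26 siRNA, and 0 were higher and 1 lower between the siRNAs. Without the filter, 3 genes were higher after Med26 siRNA. When 1 library was left out, the counts of higher and lower genes ranged from 1 to 2 and 0 to 1 after Cbx3 siRNA in NPCs, from 0 to 6 and 0 to 1 after Med26 siRNA, from 0 to 2 lower between the siRNAs, and from 0 to 7 higher in NPC control than in ESC control. The causes were not tested.

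Median centring turned log2 changes near 0 for Epcam (0.015), Cldn3 (0.034) and Cldn6 (0.021) after Cbx3 siRNA in ESCs and the interaction of Epcam (-0.040). Leaving out 1 library turned uncalled values. In NPCs the ranges were -0.091 to 0.079 for Epcam after Cbx3 siRNA, -0.018 to 0.15 for Epcam after Med26 siRNA, and -0.11 to 0.048 for Cldn7 and -0.072 to 0.056 for Dsp between the siRNAs. In ESCs they were -0.77 to 0.23 for Cdh2, -0.36 to 0.059 for Cdh3, -0.14 to 0.10 for Epcam, -0.27 to 0.27 for Cldn3, -0.10 to 0.78 for Cldn4, -0.69 to 0.67 for Cldn6, -0.51 to 0.62 for Cldn7 and -0.60 to 0.70 for Dsp. For the interaction they were -0.064 to 0.44 for Cdh1, -0.42 to 0.57 for Cdh2, -0.11 to 0.14 for Epcam, -0.50 to 0.86 for Cldn6, -0.38 to 0.75 for Cldn7 and -0.15 to 1.15 for Dsp. With 2 libraries per group and 3 or 5 residual degrees of freedom, small changes were not detectable.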
